A study of Mus musculus with 21 samples.

Results

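Mouse embryonic stem cells of the line 2TS22C that had received no lentivirus were compared between 2 media. The 2i group (NTC_2i) has 3 libraries and the serum and LIF group (NTC_SL, below SL) has 2, together 5 of the 21 libraries of the series, and all 16443 genes of the deposited values were used. The series design names the 2i medium as 2i with serum and LIF, so both groups had serum and LIF, and they differ in the addition of 2i. The genotype label of all 5 is WT and none of them lists doxycycline, which the rescued lines of the series were given. 2TS22C is known as a line whose own Sox2 copies were removed and whose Sox2 comes from a transgene that doxycycline shuts off, so cells without the drug live on transgenic Sox2. It is a single line, and the labels give replicates 1 and 2 neither a passage nor a culture of origin, so the spread between those 2 may be technical.

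Mouse embryonic stem cells renew themselves in serum and LIF, where LIF acts through its receptor and STAT3, but they vary in identity from cell to cell, because FGF4 made by the cells drives MEK and ERK and pushes some of them toward differentiation. 2i is a pair of inhibitors. An inhibitor of MEK stops ERK activity, and an inhibitor of GSK3 stabilises beta-catenin, which relieves the repressor TCF7L1 and turns on Wnt target genes. Cells in 2i are known for a uniform, naive state, with high levels of factors of the preimplantation epiblast and low levels of genes of the next, formative stage.

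The deposited values are whole numbers that had been put on a common scale across libraries. The 10 highest genes of every library share the value 76006, ranks below them are tied in groups as well, and the sequencing depth behind a value is unknown. A difference among the most abundant genes is therefore read in coarse steps. In addition, 691 genes are listed either at 0 or at 20 and above and at nothing between them, 46 of the changed genes below among them, and these were not used as examples. In the text below, values of a gene in 2i are those of replicate 1, replicate 2 and the third library, p31, in this order, and values in SL are those of replicates 1 and 2. A log2 change is the difference 2i minus SL of log2(value + 1) from a limma fit with its SE. The fit covers all 21 libraries and holds a term for the deposited set, estimated also from other lines. Because p31 belongs to the second set, a log2 change can differ from that of the printed values, at times in sign. The p-values are limma's, adjusted by Benjamini-Hochberg over the 16443 genes. A gene rose or fell where its adjusted p was under 0.05.

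The third 2i library stood apart from the other 2. It belongs to the second deposited set and its title calls it biological replicate 2, so replicates 1 and 2 of the first set may be libraries of 1 biological sample, which was not tested. Of 10450 genes with a mean of at least 100, 90 differed by 2-fold or more between replicates 1 and 2 in 2i, against 160 between the 2 SL replicates. Between p31 and these 2i replicates the number was 1338 and 1352, as large as between the 2i replicates and the SL libraries (1153 to 1322). Against the SL libraries, p31 differed at 1679 and 1536 genes. Replicates 1 and 2 and p31 are therefore set beside each other for each gene whose values are given and for part of the lists. A gene or group for which leaving out 1 library changes the outcome is given with and without that library. 31 genes of the 10450 lay at least 4-fold above all 4 other libraries in p31, and 46 lay at least 4-fold below them.

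Embryonic stem cell markers were present in all 5 libraries. The summed value of 10 such markers was 73315, 74147 and 46812 in 2i, against 50509 and 53649 in SL, with none of them at 0. Sox2 (ENSMUSG00000074637, native position chromosome 3, 34650405 to 34652461, plus strand), which this line is known to express from the transgene, was listed at 1310, 1362 and 2697 in 2i, against 533 and 843 in SL (log2 change 1.35 with SE 0.38, adjusted p = 0.0186). All 2i values lay above both SL values, but the change did not pass without SL replicate 1 (adjusted p = 0.188). Markers of other cells were low, and they moved between the groups. Of the markers measured, Fap was at 0 in all 5 libraries and Dcn in 4, while no trophoblast, primitive endoderm or neural marker was at 0 in every library. The sum of 11 measured fibroblast or feeder markers was 228, 194 and 178 in 2i, against 613 and 616 in SL, that of 7 trophoblast markers was 86, 84 and 845 in 2i, against 668 and 592 in SL, and that of 3 primitive endoderm markers was 42, 36 and 109 in 2i, against 362 and 362 in SL. The 2 neural markers measured summed to 212, 213 and 1204 in 2i, against 333 and 503 in SL, and the only blood marker measured was at 40 or below in every library. In bulk samples, fewer cells of a type and less RNA per cell cannot be told apart.

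A shift in 2i replicates 1 and 2 ran along the whole of chromosome 8 and along parts of chromosomes 14, 6 and X. The 564 genes of chromosome 8 with a mean of at least 100 had a median log2 difference of -0.43 from SL in 2i replicates 1 and 2, and 83.3% of them lay below 0. In p31 the median was -0.08 with 56.2% below 0, so the third 2i library does not share the shift. On the other autosomes the median ran from -0.07 to 0.09 in replicates 1 and 2, apart from chromosome 14 at 0.19. The shift covered the whole of chromosome 8, with medians from -0.63 to -0.31 in 7 consecutive stretches of 20 Mb. On chromosome 14 it lay in 2 neighbouring stretches, the third and the fourth from the start of the chromosome (medians 0.52 and 0.42, against -0.10 to 0.08 in the other 5). Distal chromosome 6 (0.47 and 0.30 in its last 2 stretches) and proximal X (0.48 and 0.26 in its first 2) were also raised in replicates 1 and 2. In p31 these medians were 0.01 and -0.15 on chromosome 6, and 0.25 and 0.135 on X. Nanog, Gdf3 and Cdkn1b, described below, lie in the first of the 2 raised stretches of chromosome 6. Other genes described below may lie on the raised parts of chromosomes 14, 6 and X without being marked.

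The level of chromosome 8 in each library, as the median log2 deviation of its genes from their median over all 21 libraries, was -0.31, -0.30 and 0.00 in 2i, against 0.08 and 0.04 in SL. A shift of the same direction was present in the SOX2-rescued line, which carries a SOX2 virus, at -0.12, -0.14, 0.06 and 0.06 in 2i (replicates 1 and 2, p21 and p31), against 0.09 and 0.14 in SL. The level of chromosome 14 was 0.13, 0.10 and -0.09 in NTC in 2i, against -0.06 and -0.10 in SL, and in the rescued line it was 0.16, 0.17, -0.05 and -0.18 in 2i, against -0.16 and -0.10 in SL. That of X was 0.07, 0.06 and 0.00 in NTC in 2i, against 0.00 and 0.00 in SL, and 0.13, 0.14, -0.05 and -0.19 in the rescued line in 2i, against -0.02 and -0.05 in SL. The chromosome shifts are thus not found in untransduced cells alone. Of the 564 genes of chromosome 8, 40.8% fell in the fit, against 15.2% of all 10450 genes of this abundance, and 2.31% rose. With p31 as the only 2i library 14.7% fell. The cause was not tested. A fall of about this size in a gene of chromosome 8 is therefore also what the chromosome shows as a whole. Genes on it are marked below only in part, and Fgfr1, Zfp42, Cdh1 and Cpne2 lie on it as well.

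**Figure D1:**
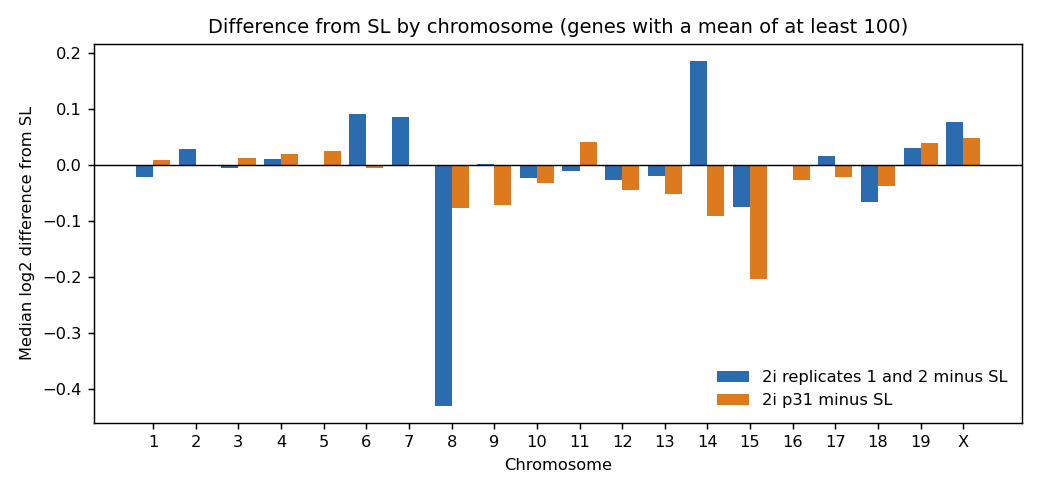
Median log2 difference from the SL libraries (y axis) of the genes of each chromosome (x axis), in 2i replicates 1 and 2 (blue) and in the third 2i library, p31 (orange). Chromosome 8 lies at -0.43 in replicates 1 and 2 and at -0.08 in p31.

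Across all genes, 4053 changed with 2i, which is 24.6% of those tested. Of these 1953 rose (11.9%) and 2100 fell (12.8%), and 1756 changed by at least 2-fold, 879 of them higher and 877 lower. The 2i and SL libraries did not overlap at 43.9% of all genes, and at 3463 of the 4053, where the test itself favours such a separation. The number of changed genes hangs on the SL libraries, since it was 2106 without SL replicate 1 and 2664 without SL replicate 2. It was 4713 without p31, and 2142 with p31 as the only 2i library, and 1481 of the 4053 passed in that fit too. It was 789 with the first-set replicates averaged to 1 value per group, 897 in a fit of the 5 NTC libraries alone, and 5979 in a fit of the first set alone. Of the 38 gene lists described below, 38 had fewer changed members with averaged replicates, 37 had fewer in the NTC libraries alone and 37 had more in the first set alone, and a list's counts are to be read beside the 24.6% over all genes. A core of 337 genes passed in every one of 21 alternative fits, 166 higher and 171 lower.

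Among the largest increases were genes that SL cells hardly expressed. Htr5a, a serotonin receptor (ENSMUSG00000039106, chromosome 5, 27842149 to 27855088, plus strand), was listed at 159, 132 and 150 in 2i, against 0 and 0 in SL (log2 change 7.05 with SE 0.59, adjusted p = 1.44e-06). Cdx1, a caudal-type homeobox gene of the posterior embryo and a direct Wnt target, stood at 147, 128 and 147 in 2i, against 1 and 2 in SL (log2 change 5.70 with SE 0.58, adjusted p = 8.63e-06). Btc, which encodes the EGF family ligand betacellulin, was at 47, 31 and 120 in 2i, against 0 and 0 in SL. In all 3 genes every 2i library stood far above the 2 SL libraries, which held values of 2 or less. Fzd10, a Wnt receptor of the Frizzled family, was at 600, 507 and 372 in 2i, against 11 and 14 in SL. The homeobox gene Nkx1-2 was at 49, 45 and 87 in 2i, against 0 and 0 in SL. The myosin heavy chain gene Myh13 was at 485, 488 and 301 in 2i, against 8 and 18 in SL. These increases hold a Wnt receptor and homeobox genes beside genes such as Htr5a and Myh13. The zinc finger homeobox gene Zfhx2 rose to 745, 651 and 814 in 2i, against 12 and 16 in SL (log2 change 5.40 with SE 0.27, adjusted p = 7.74e-09), and it lies on chromosome 14.

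Abundant genes rose with little spread between libraries. Camkk2, a kinase that acts on AMPK and CaM kinases, was listed at 962, 927 and 890 in 2i, against 80 and 94 in SL (log2 change 3.39 with SE 0.12, adjusted p = 1.98e-10). Fam53b, which in zebrafish is needed for Wnt signalling, was at 753, 706 and 729 in 2i, against 54 and 45 in SL (log2 change 3.84 with SE 0.15, adjusted p = 4.35e-10). The transcription factor Spic, an ETS family member, was at 352, 325 and 471 in 2i, against 66 and 66 in SL. The zinc transporter Slc30a2 was at 834, 785 and 962 in 2i, against 108 and 128 in SL. For these 4 genes p31 stood with replicates 1 and 2. Aff1, a scaffold of transcription elongation complexes, was at 2601, 2566 and 2027 in 2i, against 490 and 459 in SL. Celsr1, a cadherin of planar cell polarity, was at 880, 850 and 576 in 2i, against 97 and 103 in SL. Aqp3, a water and glycerol channel, was at 1332, 1362 and 706 in 2i, against 136 and 131 in SL. Pdxk, which makes the active form of vitamin B6, was at 945, 949 and 921 in 2i, against 333 and 322 in SL. In these the groups stood apart as well, with Celsr1 and Aqp3 lower in p31 than in the other 2i libraries.

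Among the largest decreases were genes close to the bottom of the scale in 2i. Car4, a membrane-bound carbonic anhydrase (ENSMUSG00000000805, chromosome 11, 84957786 to 84966044, plus strand), was listed at 2, 3 and 7 in 2i, against 514 and 703 in SL (log2 change -7.42 with SE 0.42, adjusted p = 3.17e-08). Cdkn1c, an imprinted inhibitor of cyclin-dependent kinases, was at 10, 9 and 31 in 2i, against 1119 and 1351 in SL (log2 change -6.54 with SE 0.50, adjusted p = 5.8e-07). The myelin transcription factor gene Myrf was at 4, 7 and 6 in 2i, against 439 and 442 in SL. These 3 genes were near the bottom of the scale in all 2i libraries and far higher in SL. Kif26a, an atypical kinesin, was at 13, 16 and 6 in 2i, against 769 and 706 in SL (log2 change -5.56 with SE 0.35, adjusted p = 8.06e-08). The calcium-binding S100a6 was at 16, 18 and 18 in 2i, against 272 and 212 in SL. Nav2, a neuron navigator protein gene, was at 30, 37 and 65 in 2i, against 418 and 431 in SL. Anxa5, a phospholipid-binding annexin, was at 74, 87 and 129 in 2i, against 532 and 452 in SL. Arhgap29, a GTPase-activating protein gene, was at 346, 355 and 526 in 2i, against 1385 and 1321 in SL. Rassf3, of the Ras association domain family, was at 150, 144 and 143 in 2i, against 815 and 825 in SL. In these 6 genes no 2i library reached the lowest SL value.

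**Figure D2:**
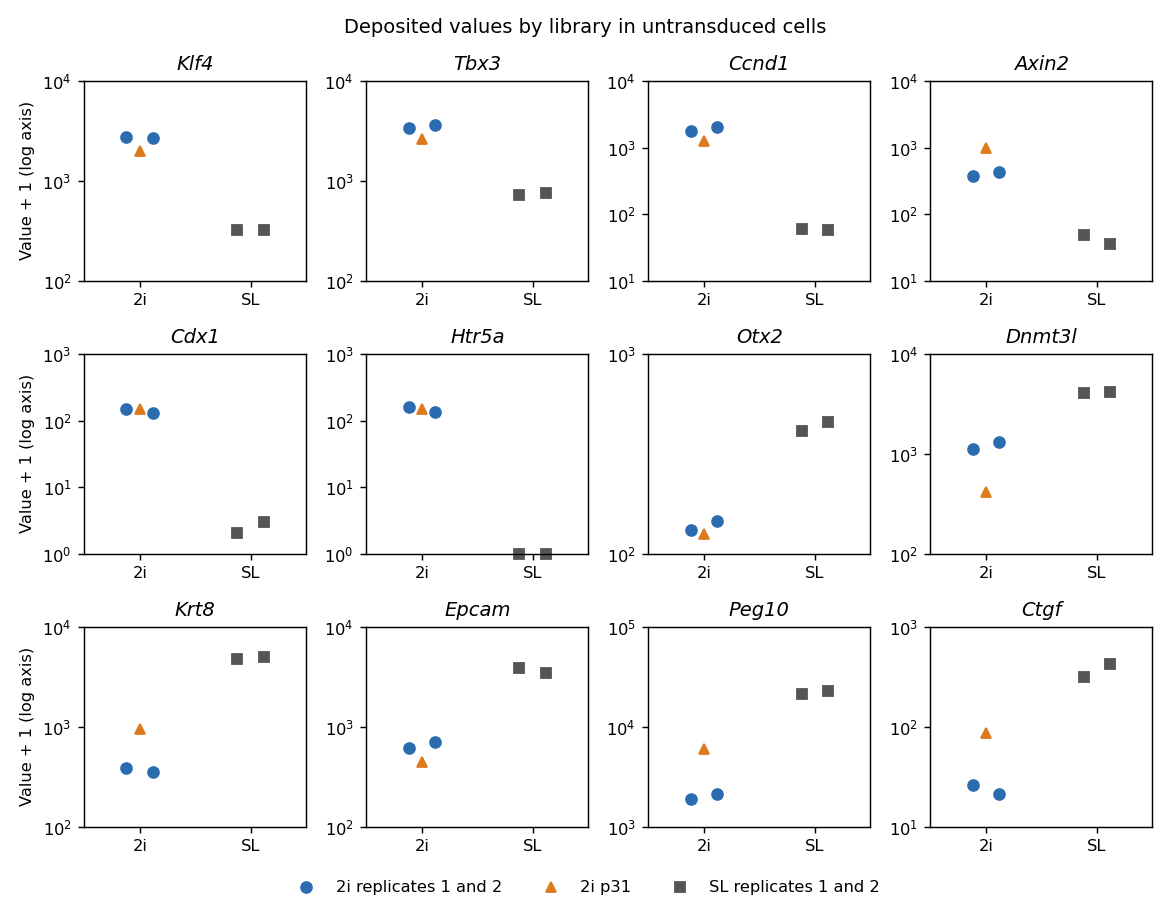
Deposited value plus 1 on a log axis (y axis) of 12 genes in the 5 libraries, with 2i libraries on the left of each panel (replicates 1 and 2 as circles, p31 as a triangle) and SL libraries on the right (squares). In every panel the 2i and SL libraries stand apart. Among the 2i libraries p31 is the highest for Axin2 (966), Krt8, Peg10 (5994) and Ctgf. It is the lowest for Klf4, Tbx3, Ccnd1, Otx2, Dnmt3l (411) and Epcam.

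Naive pluripotency regulators rose as a group in number, with 12 of 20 measured members higher (7 with averaged replicates, with the NTC libraries alone or with p31 as the only 2i library), 0 lower and 8 not passing. By limma, 3 members were lower in the first set alone, 4 in its NTC libraries alone, 1 with a pseudocount of 10 and 1 at an unadjusted p under 0.05. The median log2 change was 0.80, beside -0.0038 over all genes, and it was 1.28 in replicates 1 and 2 and 0.72 in p31. Klf4 (ENSMUSG00000003032, chromosome 4, 55527143 to 55532466, minus strand), a Kruppel-like factor downstream of STAT3, was listed at 2761, 2698 and 1981 in 2i, against 317 and 318 in SL (log2 change 2.92 with SE 0.24, adjusted p = 1.15e-06). Klf2, the family member that ERK signalling removes at the protein level, was at 3967, 4088 and 4733 in 2i, against 1158 and 1411 in SL (log2 change 1.72 with SE 0.22, adjusted p = 5.98e-05). It lies on chromosome 8, against whose shift it rose. Tbx3, a T-box repressor, was at 3375, 3618 and 2601 in 2i, against 722 and 749 in SL (log2 change 2.16 with SE 0.11, adjusted p = 7.74e-09). In all 3 genes the lowest 2i library stood above the highest SL library, and for Klf2 the highest value was that of p31.

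Prdm14, which restrains FGF signalling and the DNA methyltransferases, was at 443, 433 and 334 in 2i, against 91 and 91 in SL (log2 change 2.14 with SE 0.13, adjusted p = 8.95e-08). Nr5a2, a nuclear receptor that binds regulatory elements of Oct4, was at 1060, 1162 and 2253 in 2i, against 316 and 280 in SL (log2 change 1.86 with SE 0.18, adjusted p = 6.81e-06), with p31 again highest. Nanog, the homeobox factor of the naive network, was at 19699, 19699 and 11820 in 2i, against 8025 and 8025 in SL (log2 change 1.17 with SE 0.14, adjusted p = 4.4e-05). These values are on the tied upper part of the scale, where both 2i replicates share a value and both SL replicates share another. Nanog lies on the raised part of distal chromosome 6. Jam2, an adhesion molecule that marks these cells, was at 3646, 3579 and 1701 in 2i, against 322 and 323 in SL (log2 change 3.26 with SE 0.21, adjusted p = 1.02e-07), with p31 at less than the other 2i libraries and still above SL. Fgf4, the ligand that drives ERK, was at 2635, 2716 and 1257 in 2i, against 1675 and 1582 in SL: the call of a rise (log2 change 0.63 with SE 0.13, adjusted p = 0.00336) came with a p31 value below both SL values. Esrrb, an orphan nuclear receptor that TCF7L1 represses, was at 9718, 9718 and 6869 in 2i, against 6370 and 6370 in SL (adjusted p = 0.0106) and did not pass without 2i replicate 1 or without either SL replicate. The 2 most abundant members that did not pass were Zfp42, at 12489, 12489 and 8025 in 2i, against 6871 and 7524 in SL, and Tfcp2l1, at 6556, 6556 and 5574 in 2i, against 2621 and 2698 in SL, where Tfcp2l1 had no overlap between groups and an adjusted p of 0.0651.

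General markers of embryonic stem cells moved both ways. Of 14 measured, 3 rose (6 without p31) and 4 fell. Utf1, a chromatin factor, fell to 729, 702 and 211 in 2i, against 4233 and 5331 in SL (log2 change -3.01 with SE 0.26, adjusted p = 1.67e-06). Lin28a, the RNA-binding inhibitor of let-7 processing, was at 174, 199 and 543 in 2i, against 2199 and 2016 in SL (log2 change -3.42 with SE 0.38, adjusted p = 1.79e-05). Its relative Lin28b was at 230, 218 and 272 in 2i, against 363 and 394 in SL. In both genes the 3 2i libraries stood below both SL libraries. Gdf3, a TGF-beta family ligand gene on the raised part of chromosome 6, rose and was at 962, 940 and 730 in 2i, against 494 and 500 in SL. Dppa5a, among the most abundant of the list, was at 19697, 19697 and 7059 in 2i, against 13688 and 13688 in SL and did not pass, with p31 below SL and the other 2i libraries above it.

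Formative and primed genes fell in number. Of 26 measured, 12 fell (7 with p31 as the only 2i library, 3 with averaged replicates, 5 in the NTC libraries alone), 3 rose (0 without SL replicate 1, 1 without SL replicate 2) and 11 did not pass, and the median log2 change was -0.68 (-0.70 in replicates 1 and 2 and -0.44 in p31). Otx2, the homeobox factor that starts the formative program, was listed at 130, 144 and 124 in 2i, against 409 and 455 in SL (log2 change -1.92 with SE 0.29, adjusted p = 0.00025), with no overlap between the groups. Pou3f1, the POU factor that acts with it, was at 1, 1 and 8 in 2i, against 64 and 158 in SL (log2 change -5.18, from -5.82 without SL replicate 1 to -4.53 without SL replicate 2), and it was close to absent in 2i. Fgf5, the classical marker of the postimplantation epiblast, was listed at 0 in all 3 2i libraries and at 10 and 7 in SL. Tcf15 was at 66, 45 and 11 in 2i, against 308 and 250 in SL, the TEAD family member Tead2 at 1086, 1124 and 1114 in 2i, against 1998 and 2394 in SL and the SoxC factor Sox4 at 124, 138 and 104 in 2i, against 360 and 437 in SL, all 3 lower in every 2i library. Cldn6, a tight junction claudin of the early epiblast and endoderm, was at 18, 15 and 21 in 2i, against 490 and 542 in SL (log2 change -4.76 with SE 0.59, adjusted p = 4.91e-05). Etv5 and Igfbp2 were the most abundant members that did not pass, at 5797, 5994 and 4137 in 2i, against 4667 and 4454 in SL and at 30391, 30391 and 7798 in 2i, against 14822 and 21188 in SL.

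The de novo DNA methylation genes belong to the same stage, and 3 of them made up all the falls among 22 measured genes of DNA methylation and demethylation. The share of this list that changed, 22.7%, was no higher than the 24.6% over all genes, and 0 members passed by limma with averaged replicates or in the NTC libraries alone (3 higher and 5 lower at an unadjusted p under 0.05 in the fit of all libraries). Dnmt3l, the cofactor without catalytic activity, was at 1110, 1321 and 411 in 2i, against 4087 and 4178 in SL (log2 change -2.25 with SE 0.39, adjusted p = 0.000877). Dnmt3b was at 713, 634 and 1716 in 2i, against 2351 and 2190 in SL (log2 change -1.55 with SE 0.29, adjusted p = 0.00129). Dnmt3a was at 663, 636 and 1065 in 2i, against 2340 and 2054 in SL (log2 change -1.45 with SE 0.26, adjusted p = 0.00111). In each the groups did not overlap, and p31 stood nearest to SL for Dnmt3a and Dnmt3b but farthest from it for Dnmt3l. In the same list, 2 members rose (0 without SL replicate 1, 1 without SL replicate 2 or 2i replicate 1) and 17 did not pass.

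Genes that ERK signalling switches on as its own brakes fell more often than they rose. Of 19 measured ERK feedback and ETS target genes 9 fell (4 without SL replicate 1, 2 with p31 as the only 2i library, 1 with averaged replicates, 5 in the NTC libraries alone), 2 rose (1 without SL replicate 2) and 8 did not pass, with a median log2 change of -0.46 (-0.44 in replicates 1 and 2 and -0.21 in p31). Dusp4, a nuclear phosphatase of ERK, was listed at 23, 20 and 14 in 2i, against 852 and 870 in SL (log2 change -4.88 with SE 0.76, adjusted p = 0.00035), a fall many times larger than the shift of chromosome 8, on which it lies. Dusp6, the cytoplasmic ERK phosphatase, was at 193, 172 and 303 in 2i, against 1037 and 945 in SL (adjusted p = 0.006, and 0.0507 without SL replicate 1). Spry4 and Spry1, Sprouty inhibitors of receptor tyrosine kinase signalling, were at 44, 44 and 148 in 2i, against 377 and 363 in SL and at 36, 31 and 35 in 2i, against 147 and 126 in SL. Every 2i value of these 4 genes lay below every SL value. Ier3, an early response gene, was at 87, 72 and 70 in 2i, against 420 and 368 in SL (log2 change -2.36 with SE 0.22, adjusted p = 4.06e-06) with the same separation. The ETS factors Etv5 and Etv4 did not pass, and Etv4 was at 1025, 1028 and 1379 in 2i, against 1554 and 1627 in SL.

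Ccnd1, the D-type cyclin that is a target both of ERK and of beta-catenin, went the other way. It was listed at 1742, 2054 and 1261 in 2i, against 58 and 56 in SL (log2 change 5.04 with SE 0.20, adjusted p = 5.15e-10), with every 2i library far above both SL libraries. Immediate early genes changed little in number: of 16 measured, 2 fell (4 without p31, 1 without 2i replicate 1 or SL replicate 2, 0 without SL replicate 1), 0 rose in the limma fit (1 without p31, 0 higher at an unadjusted p under 0.05) and 14 did not pass. Egr1, the zinc finger factor usually read as the fastest response to ERK, was low in both media, at 2, 5 and 8 in 2i, against 18 and 24 in SL, and did not pass without 2i replicate 1 or either SL replicate.

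Wnt and beta-catenin targets rose, with 11 of 21 measured members higher (7 without SL replicate 1, 6 with averaged replicates, 5 in the NTC libraries alone), 1 lower and 9 not passing. The median log2 change was 0.72, and here p31 was the more shifted library, with a median of 1.79 against 0.55 in replicates 1 and 2. Axin2, the scaffold that feeds back on the pathway, was listed at 378, 424 and 966 in 2i, against 48 and 35 in SL (log2 change 3.04 with SE 0.37, adjusted p = 3.95e-05). Sp5, a direct target and a repressor of other targets, was at 52, 47 and 158 in 2i, against 0 and 0 in SL (log2 change 5.84 with SE 0.59, adjusted p = 8.63e-06). Notum, a secreted enzyme that inactivates Wnt ligands, was at 100, 70 and 365 in 2i, against 11 and 20 in SL (log2 change 2.83 with SE 0.44, adjusted p = 0.000329). In all 3 the p31 library had more than 2 times the value of replicates 1 and 2. Tnfrsf19, a receptor gene induced by Wnt, was at 654, 619 and 802 in 2i, against 68 and 57 in SL (log2 change 3.62 with SE 0.38, adjusted p = 1.22e-05) and lies on chromosome 14. Rnf43, which removes Frizzled receptors, was at 21, 20 and 10 in 2i, against 3 and 2 in SL. Cdx2 stood at 15, 12 and 519 in 2i, against 0 and 2 in SL, so that its call (adjusted p = 0.019, and 0.175 without SL replicate 1) rests on low values in replicates 1 and 2 and a high one in p31, and its log2 change was 3.06 without p31 in place of 3.67. Kremen1, a receptor of the Wnt inhibitor Dickkopf, was the 1 member that fell, at 270, 271 and 436 in 2i, against 554 and 566 in SL. Tcf7 and Fzd5 did not pass, at 454, 485 and 486 in 2i, against 448 and 341 in SL and at 1632, 1538 and 1375 in 2i, against 1321 and 1270 in SL.

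Genes of the posterior embryo, which Wnt signalling patterns, stood higher as well. Of 29 Hox genes in the list 9 were measured. Of these, 5 rose, 0 fell in the limma fit (1 lower at an unadjusted p under 0.05) and 4 did not pass, and the median log2 change was 2.15. The number that rose was 1 among genes with a mean of at least 50, 3 with averaged replicates and 2 in the NTC libraries alone. Hoxb9 was at 44, 43 and 50 in 2i, against 7 and 9 in SL, Hoxc13 at 90, 93 and 92 in 2i, against 24 and 13 in SL and Hoxa10 at 42, 48 and 227 in 2i, against 3 and 4 in SL. Each 2i library stood above both SL libraries in these 3 genes, and Hoxa10 was highest in p31. In the list of primitive streak and mesoderm, of which 8 of 20 genes were measured, 4 rose and 1 fell (2 without p31). Gsc, the homeobox gene of the organizer, was at 10, 11 and 54 in 2i, against 0 and 0 in SL. Nodal, a ligand of the streak, was at 634, 553 and 240 in 2i, against 196 and 161 in SL (log2 change 1.37 with SE 0.30, adjusted p = 0.00381). Hand1 was the member that fell, at 1, 1 and 2 in 2i, against 24 and 41 in SL. Fgf3, an FGF ligand of the streak and tail, rose and was at 96, 87 and 93 in 2i, against 6 and 5 in SL (log2 change 3.83 with SE 0.38, adjusted p = 6.47e-06).

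The LIF pathway, active in both media, gave changes at its receptors. Of 18 measured members 4 rose and 4 fell (1 without 2i replicate 2 or without either SL replicate). Il6ra, the receptor chain for interleukin 6, was listed at 259, 237 and 423 in 2i, against 28 and 26 in SL (log2 change 3.25 with SE 0.16, adjusted p = 7.74e-09). Il6st, the shared signalling chain gp130, was at 1804, 1769 and 2305 in 2i, against 1049 and 1018 in SL (log2 change 0.76 with SE 0.07, adjusted p = 2.76e-06). The kinase gene Jak1 was at 728, 745 and 792 in 2i, against 1256 and 1111 in SL (log2 change -0.62 with SE 0.11, adjusted p = 0.00123). Their groups did not overlap. Lifr, the LIF receptor chain itself, was at 1119, 936 and 1219 in 2i, against 1482 and 1452 in SL and did not pass without 2i replicate 2 or either SL replicate. Stat3 was at 1389, 1380 and 1207 in 2i, against 940 and 823 in SL (adjusted p = 0.00564, and 0.0618 without SL replicate 2).

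The Nodal list of ligands, inhibitors and targets split, with 5 of 17 measured members higher, 3 lower and 9 not passing. The median log2 difference from SL was 0.27 in replicates 1 and 2 and -0.30 in p31. Pcsk6, a convertase that activates Nodal precursors, was at 1269, 1399 and 718 in 2i, against 323 and 368 in SL (log2 change 1.74 with SE 0.18, adjusted p = 1.22e-05). Fst, an Activin antagonist, was at 94, 93 and 66 in 2i, against 26 and 26 in SL. Acvr2b, an Activin receptor, fell and was at 370, 355 and 424 in 2i, against 692 and 550 in SL, and so did Skil, a repressor of Smad complexes, at 1553, 1609 and 1082 in 2i, against 2818 and 2677 in SL. In these 4 the groups did not overlap. Lefty2, the Nodal antagonist that Smad2 induces, was at 8736, 8467 and 607 in 2i, against 2660 and 2549 in SL and did not pass. Replicates 1 and 2 stood above SL and p31 below it, a pattern that Tdgf1, the Nodal coreceptor, repeated at 4524, 4454 and 1219 in 2i, against 3579 and 3208 in SL. With p31 as the only 2i library, 2 members of the list rose and 5 fell.

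BMP signalling in serum maintains Id genes, and of 16 measured members of this list 3 rose and 3 fell (0 without SL replicate 1, 1 without any of 2i replicate 1, 2i replicate 2 and SL replicate 2). The member with the largest absolute change among those that passed was Id1, whose values are not given here. Id4 rose and was at 685, 611 and 443 in 2i, against 296 and 285 in SL, and Smad9, a BMP-responsive Smad, at 90, 91 and 127 in 2i, against 40 and 41 in SL, with no overlap in either. Id2, which BMP induces in serum, was at 80, 93 and 182 in 2i, against 226 and 231 in SL and did not pass without either first-set 2i replicate or either SL replicate. Among FGF ligands and receptors 2 of 16 rose and 4 fell, with a median log2 difference from SL of 0.225 in replicates 1 and 2 and -0.34 in p31. Fgfr2, the receptor of the primitive endoderm and trophoblast, was at 27, 26 and 96 in 2i, against 481 and 485 in SL (log2 change -4.01 with SE 0.35, adjusted p = 1.97e-06), and Fgfbp1, a carrier of FGFs, at 47, 50 and 164 in 2i, against 238 and 283 in SL (log2 change -2.14 with SE 0.25, adjusted p = 3.36e-05), both lower in every 2i library. Fgfr1, the main receptor of these cells, did not pass and was at 2463, 2413 and 5154 in 2i, against 3966 and 3513 in SL, with p31 above both SL libraries.

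Genes of the trophectoderm, the outer layer of the blastocyst, fell: 14 of 25 measured members were lower (9 with p31 as the only 2i library or with averaged replicates, 8 in the NTC libraries alone), 3 higher (1 without SL replicate 1) and 8 did not pass, with a median log2 change of -1.31 (-1.45 in replicates 1 and 2 and -1.15 in p31). Keratins of simple epithelia led them. Krt19 was listed at 27, 31 and 58 in 2i, against 1700 and 1581 in SL (log2 change -6.19 with SE 0.57, adjusted p = 3.49e-06), Krt7 at 6, 10 and 14 in 2i, against 564 and 434 in SL and Krt8 at 381, 355 and 958 in 2i, against 4732 and 5051 in SL (log2 change -3.55 with SE 0.42, adjusted p = 3.72e-05). Krt18, the partner of Krt8 in filaments, was at 324, 336 and 585 in 2i, against 3404 and 3185 in SL. The 4 keratins were each several times lower in all 2i libraries, with p31 the highest of the 3. Wnt7b was at 6, 8 and 21 in 2i, against 143 and 198 in SL, the homeobox gene Dlx3 at 2, 1 and 3 in 2i, against 40 and 46 in SL and the ETS factor Elf5 at 0, 0 and 13 in 2i, against 31 and 29 in SL. Elf3, an epithelial ETS factor, was the exception that held without any 1 library, rising to 1222, 1286 and 1129 in 2i, against 702 and 685 in SL. Ly6a, a surface antigen, did not pass and was at 92, 94 and 1602 in 2i, against 154 and 145 in SL, with p31 alone far above the rest. The trophoblast marker sum given above was below SL in replicates 1 and 2, as this list was, and above SL in p31, where the list's median was below SL and Cdx2 alone made up 519 of 845. The part of such cells in the result was not tested.

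Endoderm genes also fell more often than they rose, with 6 of 18 measured members lower and 2 higher. Gata6, the factor that sets up primitive endoderm, was at 20, 16 and 76 in 2i, against 176 and 218 in SL (log2 change -3.03 with SE 0.41, adjusted p = 9.68e-05). Pdgfra, its surface marker, was at 21, 20 and 33 in 2i, against 180 and 140 in SL (log2 change -2.67 with SE 0.29, adjusted p = 1.29e-05). Cubn, an endocytic receptor, was at 93, 121 and 140 in 2i, against 315 and 317 in SL, while its partner Lrp2, also called lower, was at 263, 259 and 1857 in 2i, against 1538 and 1574 in SL, with p31 above SL. For Gata6, Pdgfra and Cubn all 2i libraries stood below SL, and the summed primitive endoderm markers moved the same way, whose part in the result was not tested.

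Cell adhesion and the basement membrane changed in composition. In the epithelial list 11 of 26 measured members fell (7 without SL replicate 2 or in the NTC libraries alone, 5 with averaged replicates), 3 rose and 12 did not pass. Epcam, an adhesion molecule of epithelia and stem cells, was listed at 607, 700 and 439 in 2i, against 3863 and 3482 in SL (log2 change -2.51 with SE 0.10, adjusted p = 7.6e-10), the fall with the smallest adjusted p among genes that fell by at least 2-fold. Esrp1, a splicing regulator of epithelia, was at 21, 35 and 24 in 2i, against 467 and 395 in SL (log2 change -3.91 with SE 0.32, adjusted p = 1.15e-06), the desmosomal plaque gene Pkp2 at 572, 593 and 443 in 2i, against 1545 and 1475 in SL and desmoplakin, Dsp, at 194, 195 and 152 in 2i, against 452 and 417 in SL. Ocln, a tight junction protein gene, rose and was at 196, 194 and 199 in 2i, against 126 and 122 in SL. Cdh1, which encodes E-cadherin, did not pass at 6245, 7059 and 6698 in 2i, against 6128 and 6554 in SL, and Ctnna1 did not pass either, at 7795, 7795 and 5994 in 2i, against 8024 and 8024 in SL. In the mesenchymal list 2 of 17 measured members rose (1 without p31, 2i replicate 2 or either SL replicate) and 0 fell in the limma fit (2 without p31, 3 at an unadjusted p under 0.05).

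Laminin chains moved in opposite directions. Among 28 measured integrin and basement membrane genes 4 rose and 6 fell. Lama1, the alpha chain of laminin 111, was at 2446, 2340 and 2340 in 2i, against 841 and 895 in SL (log2 change 1.30 with SE 0.18, adjusted p = 0.000119). Lamb1, the beta chain of laminin 111, was at 383, 340 and 328 in 2i, against 1834 and 1880 in SL (log2 change -2.28 with SE 0.23, adjusted p = 8.93e-06). Both separated the groups, Lamb1 in the opposite sense to Lama1, its partner in the trimer. Itga3, a laminin-binding integrin, was at 44, 42 and 85 in 2i, against 904 and 777 in SL (log2 change -3.81 with SE 0.33, adjusted p = 1.97e-06). Hspg2, which encodes perlecan, was at 11820, 11389 and 12489 in 2i, against 25021 and 30391 in SL. Itgb1, the common beta chain, was at 3536, 3647 and 4972 in 2i, against 7307 and 7307 in SL and lies on chromosome 8. Fn1, fibronectin, rose and was at 25019, 25019 and 14818 in 2i, against 9102 and 9102 in SL (log2 change 1.17 with SE 0.27, adjusted p = 0.00592).

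Actin cytoskeleton genes that SRF with its cofactors MRTF, and YAP with TEAD, activate were lower in 2i. Of 26 measured, 17 fell (11 without SL replicate 1, 5 with p31 as the only 2i library, 3 with averaged replicates, 6 in the NTC libraries alone), 1 rose and 8 did not pass, and the median log2 change was -1.43 (-1.44 in replicates 1 and 2 and -1.18 in p31). Ctgf, a secreted matricellular protein and a common readout of YAP, was listed at 25, 20 and 85 in 2i, against 311 and 427 in SL (log2 change -3.63 with SE 0.32, adjusted p = 2.51e-06). Amotl2, a feedback inhibitor of YAP, was at 1423, 1298 and 1040 in 2i, against 3358 and 3186 in SL (log2 change -1.42 with SE 0.23, adjusted p = 0.000518). Acta2, smooth muscle actin, was at 0, 3 and 8 in 2i, against 103 and 115 in SL (log2 change -5.05, -4.02 without 2i replicate 1 and -5.78 without p31). All 3 were lower in every 2i library. Tagln2 was at 917, 1023 and 495 in 2i, against 2028 and 2112 in SL, the tropomyosins Tpm1 and Tpm2 at 1153, 1089 and 1079 in 2i, against 2054 and 1842 in SL and at 9, 9 and 8 in 2i, against 35 and 54 in SL, and Thbs1, thrombospondin 1, at 26, 17 and 57 in 2i, against 153 and 193 in SL. Vim, vimentin, was the 1 member that rose, at 1272, 1422 and 4232 in 2i, against 855 and 880 in SL, and it did not pass without 2i replicate 2, p31 or either SL replicate. The abundant actins Actb and Actg1 did not pass, at 7307, 7307 and 25019 in 2i, against 13688 and 12486 in SL and at 11819, 11819 and 30387 in 2i, against 16422 and 13688 in SL, with p31 well above every other library.

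Fibroblast markers moved with these genes. In that list of 15 measured, 7 fell (4 without either SL replicate), Fn1 rose and 7 did not pass. Col1a1, the chain that defines type I collagen, was at 6, 5 and 1 in 2i, against 42 and 55 in SL. Mmp2, a matrix metalloproteinase on chromosome 8, was at 19, 21 and 12 in 2i, against 197 and 171 in SL (log2 change -3.17 with SE 0.35, adjusted p = 1.76e-05). Postn, periostin, was at 59, 46 and 0 in 2i, against 181 and 215 in SL and Lum, lumican, at 70, 0 and 77 in 2i, against 0 and 0 in SL, neither passing. The collagen values in SL are small beside those of stem cell markers in the same libraries, and the part of such cells in the fall of cytoskeletal genes was not tested.

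**Figure D3:**
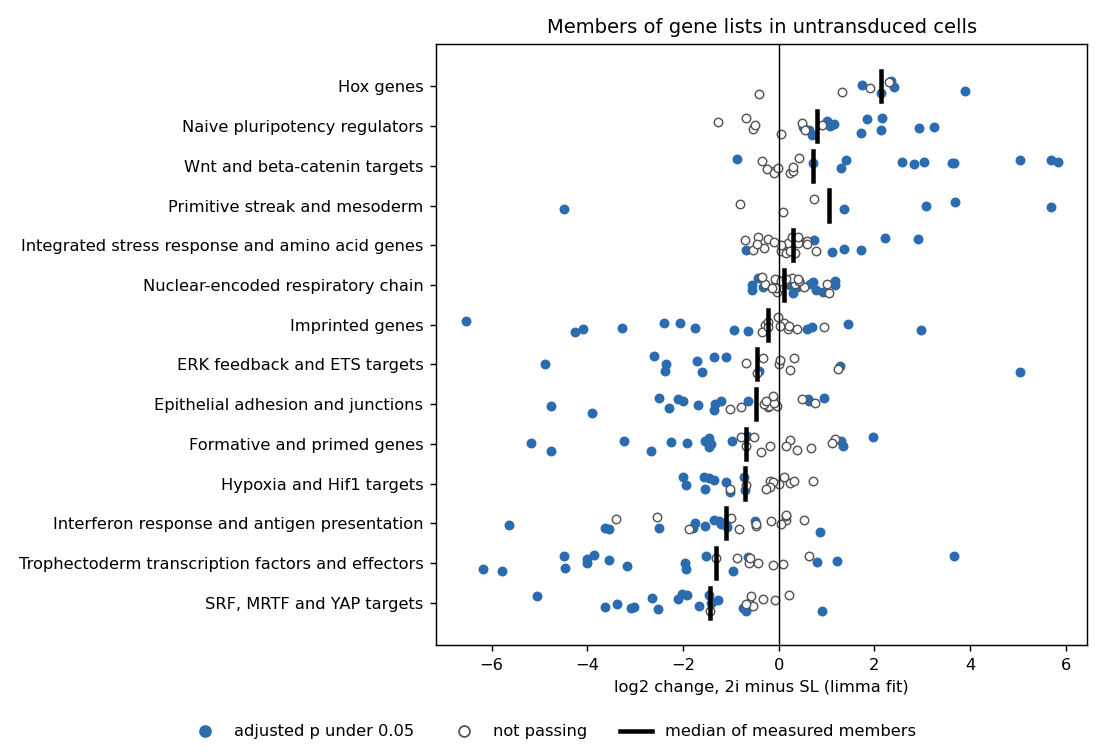
Log2 change, 2i minus SL, of the measured members (points) of 14 gene lists (rows), filled where the gene passed the test (adjusted p under 0.05) and open where it did not, with the median of all measured members as a black bar. Medians run from -1.43 for SRF, MRTF and YAP targets to 2.15 for Hox genes, of which 9 of 29 were measured.

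Interferon response and antigen presentation genes fell: of 27 measured, 13 were lower (8 without either SL replicate, 4 with p31 as the only 2i library, 1 with averaged replicates, 5 in the NTC libraries alone), 1 higher and 13 did not pass, with a median log2 change of -1.11 (-1.17 in replicates 1 and 2 and -0.54 in p31). Bst2, the tether of enveloped viruses, was listed at 203, 196 and 340 in 2i, against 3682 and 3160 in SL (log2 change -3.62 with SE 0.50, adjusted p = 0.000135), far below SL in all 2i libraries. It lies on chromosome 8, whose shift goes the same way and is many times smaller than this fall. Ifitm3 and Ifitm1, membrane proteins that restrict virus entry, were at 178, 151 and 417 in 2i, against 629 and 679 in SL and at 735, 726 and 855 in 2i, against 1509 and 1428 in SL. Irf1, the transcription factor of the response, was at 197, 151 and 145 in 2i, against 390 and 376 in SL (log2 change -1.26 with SE 0.22, adjusted p = 0.000846). Every 2i library was lower in these 4 genes. Xaf1 was the member that rose, at 205, 193 and 177 in 2i, against 96 and 113 in SL. B2m, the light chain of MHC class I, did not pass and was at 398, 421 and 381 in 2i, against 350 and 439 in SL.

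Imprinted genes, which are expressed from 1 parental copy, changed often. Of 24 measured, 13 passed the test: 9 fell (4 with averaged replicates, 5 in the NTC libraries alone), 4 rose (2 without SL replicate 1) and 11 did not pass. H19, a noncoding RNA that restrains growth, was listed at 2099, 2218 and 4667 in 2i, against 30387 and 30387 in SL (log2 change -4.08 with SE 0.80, adjusted p = 0.0022). Peg10, a retrotransposon-derived gene needed for the placenta, was at 1900, 2125 and 5994 in 2i, against 21185 and 22912 in SL (log2 change -3.27 with SE 0.22, adjusted p = 2.16e-07). Its neighbour Sgce was at 139, 138 and 191 in 2i, against 519 and 535 in SL (log2 change -1.75 with SE 0.18, adjusted p = 1.04e-05). Peg3, a zinc finger gene, was at 798, 791 and 1502 in 2i, against 5051 and 4667 in SL (log2 change -2.39 with SE 0.31, adjusted p = 7.66e-05). In these 4 the groups did not overlap, and for H19, Peg10 and Peg3 p31 lay between the other 2i libraries and SL. Phlda2, which limits placental growth, was at 7, 7 and 28 in 2i, against 239 and 205 in SL and lies with Cdkn1c in the same imprinted domain of chromosome 7. Mest was at 366, 411 and 2191 in 2i, against 2493 and 2340 in SL, with p31 just below SL. Plagl1, a zinc finger factor of the imprinted network, rose and was at 3770, 3863 and 7307 in 2i, against 602 and 472 in SL (log2 change 2.97 with SE 0.28, adjusted p = 3.96e-06), with p31 highest, and Grb10, an adaptor of growth factor receptors, at 708, 729 and 288 in 2i, against 208 and 215 in SL.

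Regulators of the G1 phase changed in both directions. Of 22 measured, 5 rose (3 without 2i replicate 2 or SL replicate 1) and 4 fell. Beside Ccnd1, the inhibitor Cdkn1a (p21) rose and was at 2384, 2503 and 2112 in 2i, against 726 and 740 in SL (log2 change 1.77 with SE 0.20, adjusted p = 2.55e-05), as did Cdkn1b (p27), at 1870, 1945 and 563 in 2i, against 589 and 660 in SL, with p31 below both SL values. Ccna2, cyclin A2, fell and was at 2305, 2351 and 2493 in 2i, against 3936 and 3482 in SL (log2 change -0.65 with SE 0.09, adjusted p = 0.000186), and Ccne1, cyclin E1, was at 516, 511 and 1138 in 2i, against 1153 and 1142 in SL. For Ccna2 the groups did not overlap, and Cdkn1b lies on the raised part of distal chromosome 6. Among 23 measured p53 targets, of which 26.1% changed, 5 rose (3 without SL replicate 2) and 1 fell (2 without p31). Tigar, a regulator of glycolysis, was at 1298, 1216 and 1617 in 2i, against 424 and 466 in SL (log2 change 1.46 with SE 0.14, adjusted p = 4.06e-06). Ccng1 was at 9105, 9369 and 8736 in 2i, against 6371 and 7061 in SL. Apoptosis regulators gave 4 of 22 higher (2 without 2i replicate 1 or either SL replicate) and 4 lower (2 without SL replicate 1). Bcl2l11, the BH3-only protein BIM that ERK marks for degradation, was at 85, 76 and 110 in 2i, against 417 and 496 in SL (log2 change -2.35 with SE 0.17, adjusted p = 3.4e-07). Bid, another BH3-only protein gene, was at 1111, 1065 and 720 in 2i, against 439 and 518 in SL.

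Genes of the hypoxia response, targets of HIF1, fell in number, with 10 of 21 measured lower and 0 higher in the limma fit (1 higher at an unadjusted p under 0.05), and the median log2 change was -0.70 (-0.57 in replicates 1 and 2 and -1.40 in p31). The count rests on the SL libraries, since 2 passed without SL replicate 1 and 6 without SL replicate 2, and 1 passed with averaged replicates and 3 in the NTC libraries alone. Epas1, which encodes HIF2 alpha, was at 35, 29 and 41 in 2i, against 156 and 99 in SL (log2 change -2.01 with SE 0.32, adjusted p = 0.000437). Pdk1, the kinase that closes the entry of pyruvate into mitochondria, was at 2621, 2621 and 1774 in 2i, against 5475 and 5265 in SL (log2 change -1.11 with SE 0.17, adjusted p = 0.000379). These 2 passed without any 1 library. Ndrg1 was at 417, 443 and 117 in 2i, against 1351 and 1049 in SL and Bnip3, a receptor of mitophagy, at 2126, 2284 and 782 in 2i, against 5155 and 4669 in SL, both lower in every 2i library. Neither passed without SL replicate 1, nor Bnip3 without SL replicate 2. In the glycolysis list, where 26.7% changed, near the 24.6% over all genes, 3 of 30 rose (0 without SL replicate 2) and 5 fell (3 without 2i replicate 1 or SL replicate 1). Its median log2 difference from SL was 0.01 in replicates 1 and 2 and -0.61 in p31. Eno1, enolase 1, was at 7522, 7795 and 7307 in 2i, against 19697 and 19697 in SL (log2 change -1.35 with SE 0.14, adjusted p = 1.19e-05). Pfkm, a phosphofructokinase, was at 505, 567 and 361 in 2i, against 873 and 775 in SL. Gapdh sat at the highest value of the scale in all 5 libraries, so a difference in it could not have been seen.

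Nuclear-encoded genes of the respiratory chain gave 9 of 37 higher (2 with p31 as the only 2i library) and 4 lower (2 without SL replicate 1). Cox5a, a subunit of cytochrome oxidase, was at 3439, 3301 and 2191 in 2i, against 1742 and 1709 in SL (log2 change 0.93 with SE 0.10, adjusted p = 1.15e-05). Ndufb8, of complex I, was at 1471, 1347 and 1422 in 2i, against 779 and 752 in SL. Both were higher in every 2i library. Sdhc, of complex II, fell and was at 645, 702 and 657 in 2i, against 1065 and 937 in SL. In the list of cholesterol and fatty acid synthesis 4 of 32 rose and 7 fell (13 without p31, 3 or 4 without any other library, 0 with p31 as the only 2i library). The median log2 difference of this list from SL was -0.26 in replicates 1 and 2 and 0.275 in p31. Fdps, which makes farnesyl diphosphate, was at 870, 892 and 1641 in 2i, against 2267 and 2016 in SL. Elovl6, a fatty acid elongase, was at 3208, 3301 and 2932 in 2i, against 1694 and 1569 in SL (log2 change 0.89 with SE 0.11, adjusted p = 3.76e-05). Fasn, fatty acid synthase, did not pass and was at 4973, 4582 and 22915 in 2i, against 6247 and 5476 in SL, with p31 alone several times higher.

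The integrated stress response and amino acid genes are a group in which the 2i libraries disagree. The share of members that changed, 26.7%, was near the 24.6% over all genes. Of 30 measured, 7 rose and 1 fell in the fit of all libraries, 15 rose and 2 fell without p31, 3 rose without SL replicate 1, and 1 rose and 9 fell with p31 as the only 2i library. The median log2 difference from SL was 0.52 in replicates 1 and 2 and -0.55 in p31. Slc7a1, a transporter of arginine and lysine, was at 3034, 3034 and 1842 in 2i, against 731 and 793 in SL (log2 change 1.72 with SE 0.21, adjusted p = 5.17e-05) and rose without any 1 library. Nupr1, a stress-induced chromatin protein, was at 467, 456 and 50 in 2i, against 27 and 50 in SL, with a log2 change of 2.91 that was 3.61 without p31. Ddit4, an inhibitor of mTORC1, was at 9105, 9720 and 2137 in 2i, against 4525 and 5798 in SL and did not pass. Xbp1, a factor of the unfolded protein response, fell and was at 453, 417 and 439 in 2i, against 682 and 685 in SL. For ribosome biogenesis and Myc targets the share that changed, 24.1%, was near that over all genes, and 4 of 29 rose (2 without SL replicate 1) and 3 fell. Ncl, nucleolin, was at 40745, 40745 and 76006 in 2i, against 76006 and 76006 in SL, where its highest value is the ceiling of the scale.

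**Figure D4:**
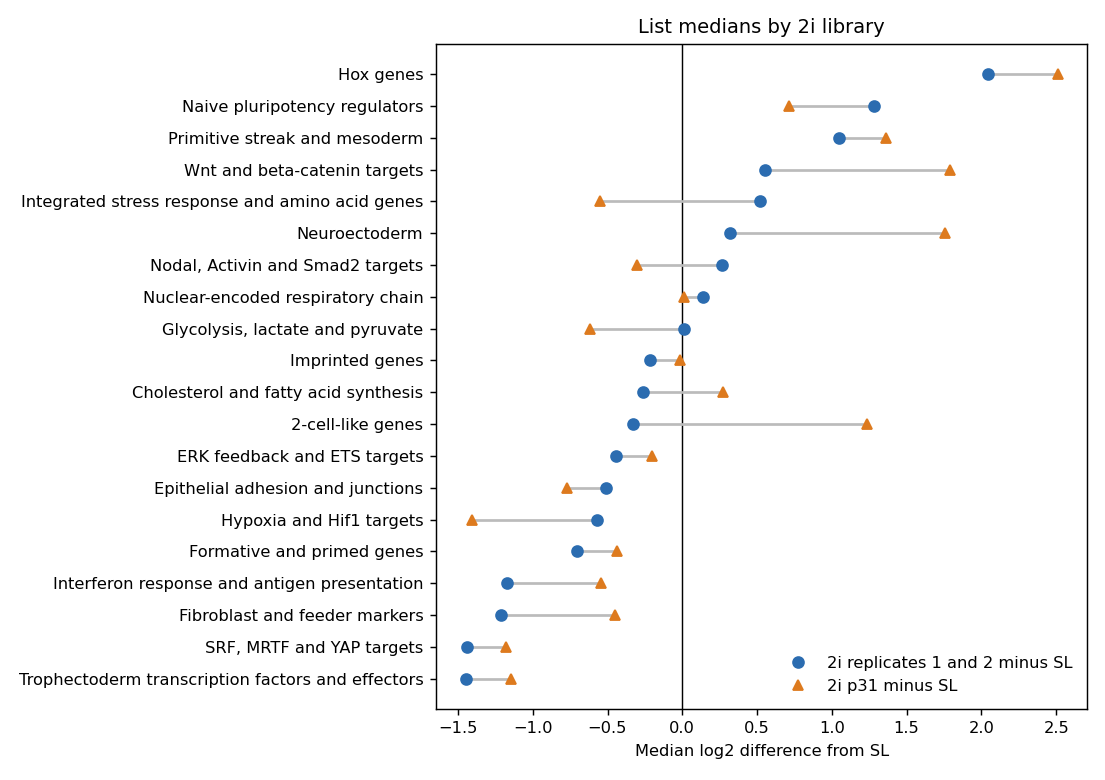
Median log2 difference from the SL libraries (x axis) of the measured members of 20 gene lists (rows), in 2i replicates 1 and 2 (blue circles) and in the third 2i library, p31 (orange triangles). The lists of trophectoderm genes, SRF targets and Hox genes have like medians in both, and the integrated stress response list is at 0.52 in replicates 1 and 2 and at -0.55 in p31.

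Chromatin and signalling lists completed the description. Polycomb and trithorax genes gave 9 of 29 higher (4 without SL replicate 1) and 4 lower. Phf19, an accessory subunit of Polycomb complex 2, fell and was at 61, 78 and 42 in 2i, against 297 and 277 in SL (log2 change -2.16 with SE 0.28, adjusted p = 7.22e-05), as did the histone-binding Rbbp7, at 8269, 8466 and 12486 in 2i, against 18497 and 14818 in SL (log2 change -0.97 with SE 0.10, adjusted p = 1.05e-05), while Aebp2, another accessory subunit, rose and was at 2761, 2864 and 2112 in 2i, against 1487 and 1206 in SL (log2 change 0.94 with SE 0.12, adjusted p = 8.69e-05). The core subunit Suz12 was at 11389, 11389 and 10054 in 2i, against 8736 and 8467 in SL (log2 change 0.34). These 4 genes separated the groups, with the smallest change in the core subunit. In the Notch list 3 of 17 rose (1 without SL replicate 1) and 3 fell (5 without p31). Hes1, the Notch-induced repressor, was at 921, 932 and 589 in 2i, against 231 and 180 in SL (log2 change 2.12 with SE 0.26, adjusted p = 4.54e-05). The ligand gene Jag2 was at 66, 94 and 46 in 2i, against 469 and 358 in SL.

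Guidance molecules of axons gave 8 of 29 higher (5 without SL replicate 1) and 7 lower (4 without 2i replicate 1, 2i replicate 2 or SL replicate 1). Ntn1, netrin 1, was at 1182, 1037 and 1918 in 2i, against 99 and 79 in SL (log2 change 3.56 with SE 0.37, adjusted p = 1.08e-05). The ephrin receptor gene Epha4 was at 3034, 2761 and 2160 in 2i, against 651 and 585 in SL (log2 change 1.92 with SE 0.25, adjusted p = 8.3e-05). Plxnb1, a semaphorin receptor gene, was at 40, 39 and 67 in 2i, against 603 and 528 in SL (log2 change -3.37 with SE 0.35, adjusted p = 9.57e-06). Neuroectoderm genes gave 4 of 11 higher and 3 lower (1 without either SL replicate). Their median log2 difference from SL was 0.32 in replicates 1 and 2 and 1.76 in p31. Msi1, an RNA-binding protein gene of neural progenitors, rose and was at 373, 441 and 218 in 2i, against 39 and 67 in SL. The neurofilament gene Nefl, on chromosome 14, was at 317, 300 and 399 in 2i, against 85 and 79 in SL. Tubb3, on chromosome 8 and part of the neural marker sum, did not pass and was at 203, 199 and 1178 in 2i, against 281 and 430 in SL, which is 1178 of the neural sum of 1204 in p31.

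Germline genes gave 5 of 26 higher and 5 lower, and under the fits that left out 1 of 2i replicates 1 and 2 or an SL library 2 to 3 rose and 2 to 4 fell. Dazl, an RNA-binding protein gene of germ cells, was at 3647, 3681 and 3966 in 2i, against 1111 and 1089 in SL (log2 change 1.91 with SE 0.31, adjusted p = 0.000522). Kit, the receptor gene of stem cell factor, was at 3404, 3536 and 4667 in 2i, against 1769 and 1842 in SL (log2 change 1.04 with SE 0.19, adjusted p = 0.00101). Both rose in all 2i libraries. Genes of the 2-cell-like state gave 2 of 22 higher (0 without either SL replicate, 1 without either first-set 2i replicate) and 0 lower in the limma fit (2 without p31, 0 lower at an unadjusted p under 0.05), with a median log2 difference from SL of -0.33 in replicates 1 and 2 and 1.23 in p31. Retinoic acid targets gave 1 of 11 higher and 2 lower (1 without 2i replicate 1, 2i replicate 2 or either SL replicate, 4 without p31), and the receptor gene Rarg was at 591, 602 and 384 in 2i, against 1502 and 1230 in SL (log2 change -1.36 with SE 0.23, adjusted p = 0.000588).

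The change with 2i in untransduced cells was set against that in the SOX2-rescued line, which carries a SOX2 lentivirus, was given doxycycline, which shuts off the Sox2 transgene, and has 4 libraries in 2i, against 2 in SL. The doxycycline and the virus go with the line and cannot be told apart from it. The difference between the 2 changes, NTC minus SOX2-rescued, passed for 3095 genes (18.8%), 1481 with a more positive change in NTC and 1614 with a more negative one. This number was 2902 with p31 as the only NTC library in 2i and 1946 without NTC SL replicate 1.

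Trh, which encodes the precursor of thyrotropin-releasing hormone, was listed in untransduced cells at 383, 407 and 1222 in 2i, against 694 and 909 in SL and in SOX2-rescued cells at 11, 11, 20 and 10 in 2i and 1119 and 939 in SL. It did not pass in untransduced cells (log2 change -0.62 with SE 0.47, adjusted p = 0.384) and fell in the rescued line (log2 change -6.49 with SE 0.47, adjusted p = 1.01e-07), and the difference of the 2 changes was 5.86 ± 0.64 (SE) (adjusted p = 4.18e-05). Rundc3a, a neuronal gene of the RUN domain family, was in untransduced cells at 114, 130 and 96 in 2i, against 145 and 148 in SL and in SOX2-rescued cells at 722, 687, 456 and 692 in 2i and 15 and 9 in SL. The difference was -6.11 ± 0.34 (SE) (adjusted p = 9.37e-08), with a rise in the rescued line and none that passed in NTC. Smad6, an inhibitor of BMP signalling, was in untransduced cells at 37, 37 and 5 in 2i, against 105 and 84 in SL and in SOX2-rescued cells at 83, 88, 32 and 20 in 2i and 8 and 5 in SL. Its difference was -5.17 ± 0.56 (SE) (adjusted p = 4.08e-05), with opposite directions in the lines, although the fall in NTC did not pass without SL replicate 1. For Rundc3a and Smad6 the 2 lines stood far apart in SL as well, and for Trh the SL values of the lines lay close together. The lines were not compared by a test within a medium.

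**Figure D5:**
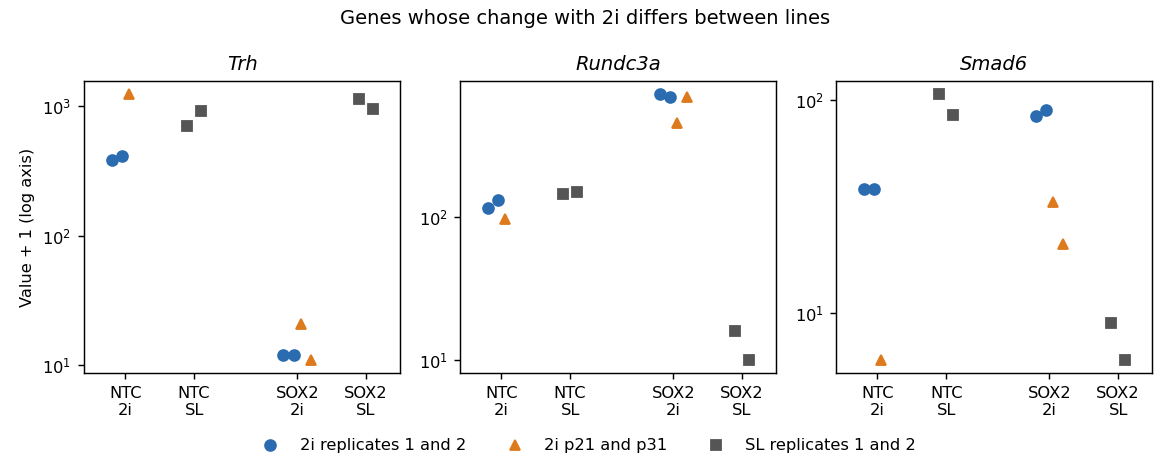
Deposited value plus 1 on a log axis (y axis) of Trh, Rundc3a and Smad6 in the libraries of untransduced (NTC) and SOX2-rescued cells, each with 2i libraries on the left (circles, p21 and p31 as triangles) and SL libraries on the right (squares). Rundc3a lies between 96 and 148 in all 5 NTC libraries and differs between media in the rescued line.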

How the data were processed

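RNA of mouse embryonic stem cells was extracted with Trizol, selected with oligo(dT) and primed with random hexamers, per the labels' protocols; no source used here says whether strand was used in counting. RSEM, Bowtie2 2.0 and mm10 are named per the submitters' processing notes. The authors deposited 1 table of 16443 genes in 21 libraries, with whole numbers that are a normalized score: totals are 14044316 to 14047262, each library has a median of 214 and 1319 distinct values, and depth, counting intervals and detection floors cannot be had from them. Because the deposited score is not a count of reads, the count test planned for raw counts was not used.

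The test was limma 3.58.1 in R 4.3.3 (intensity trend, robust moderation, two-sided) on log2(value + 1), fitted once over all 21 libraries with a term for each of 8 groups and 1 for the deposit set, with 12 residual degrees of freedom. A fold change between low values is understated on this scale. A filter that asked for 1 or more in 2 or more libraries removed 0 genes, and p-values were adjusted by Benjamini-Hochberg over 16443 genes at 0.05. The columns of replicates 1 and 2 were matched by name, and p31 by its group. On simulated data 32.8% of 67 genes changed by 1.5-fold, 43.3% of 67 changed by 2-fold and 80.3% of 66 changed by 4-fold were recovered, with 5 other genes called. The simulated noise was independent between libraries, without the likeness of replicates 1 and 2 or the departure of p31, and few genes were changed. These figures are therefore not recovery or error rates of the calls in the real data. Levels are not divided by gene length and are compared within a gene. Gene positions are those of GENCODE M21 (GRCm38).

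The gene lists, and the comparison itself, were chosen with earlier results of these data known, and list counts and medians are descriptions with no test. Named genes came from the largest changes and smallest adjusted p among called genes with a value of 50 or more, from the called members with the largest change and the 2 most abundant uncalled members of each list, and from the largest differences between the lines. Predicted genes and genes listed at 0 or at 20 and above with nothing between were left out. The text names a part of these, chosen after values were seen, and a few others likewise. Alternatives were other pseudocounts, a filter on the mean, repeated normalization, no deposit term, no moderation options, the first deposit alone, averaged replicates, NTC libraries alone, a replicate block and each library left out. Centring each chromosome, leaving out chromosomes 8 and 14, and p31 as the only 2i library were chosen after seeing the data. Python 3.11.15, pandas 2.3.3 and matplotlib 3.10.9 were used.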

Additional observations from a re-analysis of the deposited data

Results flagged for a closer look

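Of the 196 genes named, 86 changed with 2i to a different extent in untransduced and in SOX2-rescued cells, by the limma test of that difference (adjusted p from 9.37e-08 to 0.049). Over all genes the share is 18.8%, and the named genes were chosen in part for large changes in NTC and for large differences between the lines, so their count is no result of its own. The values below are the log2 change in NTC minus that in the rescued line, so a positive one is a more positive change in NTC. In 28 of the 86 the 2 changes had opposite signs. For some of these the change in 1 line was close to 0, such as Epas1 (0.02 in the rescued line) and Cdh1 (-0.04 in NTC). The difference held without any 1 of the 11 NTC and SOX2 libraries for 59, and under all 24 alternatives for 13. It did not hold without at least 1 library for Acvr2b, Car4, Cdh1, Dlx3, Eno1, Epcam, Etv5, Fgf3, Hand1, Hoxb9, Itgb1, Kremen1, Krt7, Lama1, Lin28b, Myh13, Ncl, Nkx1-2, Ntn1, Peg10, Pfkm, Phf19, Slc30a2, Sox4, Sp5, Tbx3 and Tfcp2l1.

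Among Wnt genes the signs were opposite for Axin2, Notum, Kremen1 and Wnt7b and the same for Sp5, Tnfrsf19 and Fzd10. The log2 change of Kremen1 was -0.88 in NTC and 0.02 in the rescued line, and that of Wnt7b was -3.87 in NTC and 0.44 in the rescued line. Whether the changes of these genes in the rescued line passed on their own is not given here. The log2 change of Axin2 was 3.04 in NTC and -0.87 in the rescued line, and that of Notum was 2.83 in NTC and -0.68 in the rescued line. It was 5.84 in NTC and 2.67 in the rescued line for Sp5, 3.62 in NTC and 0.96 in the rescued line for Tnfrsf19, and 5.16 in NTC and 1.93 in the rescued line for Fzd10. The differences of the Wnt and posterior genes were 3.91 for Axin2, 3.17 for Sp5, 3.52 for Notum, 2.66 for Tnfrsf19, 3.22 for Fzd10, -0.90 for Kremen1, 1.81 for Hoxb9, 2.96 for Nkx1-2 and -4.31 for Wnt7b. Ccnd1 and genes of ERK and FGF signalling differed by 3.85 for Ccnd1, 4.90 for Egr1, 3.21 for Spry4, 0.65 for Etv5, 1.90 for Fgf3 and -2.11 for Fgfr2.

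Regulators of pluripotency and of the formative state differed by 0.50 for Tbx3, 1.65 for Nr5a2, -0.85 for Nanog, -1.53 for Tfcp2l1, 3.09 for Lin28a, 0.64 for Lin28b, 1.71 for Otx2, 1.76 for Sox4, 1.92 for Dnmt3a and 1.96 for Rarg. For the Nodal, BMP, LIF and Hedgehog genes the difference was 2.43 for Nodal, 5.11 for Lefty1, 0.64 for Acvr2b, 0.82 for Skil, -5.17 for Smad6, 0.94 for Il6st, -0.85 for Jak1 and 3.09 for Gli3. The log2 change of Nodal was 1.37 in NTC and -1.06 in the rescued line.

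Trophectoderm and epithelial genes differed by -3.45 for Hand1, -2.51 for Krt7, -2.44 for Dlx3, -1.81 for Elf3, -2.65 for Ly6a, 0.45 for Epcam, 1.52 for Pkp2, -1.96 for Dsp and -0.65 for Cdh1. Matrix and cytoskeletal genes differed by 0.94 for Lama1, -4.74 for Itga3, -0.71 for Itgb1, -1.23 for Hspg2, -3.86 for Ctgf, -2.01 for Amotl2, -2.26 for Tagln2, -1.13 for Tpm1, 1.82 for Vim and -3.55 for Col1a1. Itga3 changed by -3.81 in NTC and 0.92 in the rescued line, and Ctgf by -3.63 in NTC and 0.23 in the rescued line.

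Imprinted, interferon and Polycomb genes differed by -0.91 for Peg10, -1.73 for Sgce, -2.25 for Plagl1, -2.36 for Ifitm3, -1.56 for Xaf1 and -1.56 for Phf19. Metabolic, hypoxia and p53 genes differed by -2.03 for Epas1, 1.60 for Pdk1, 2.97 for Bnip3, 0.75 for Eno1, -0.83 for Pfkm, -0.61 for Cox5a, -0.76 for Sdhc, 0.90 for Elovl6, 0.86 for Tigar, 0.58 for Ccng1 and 0.81 for Ncl. Neural genes and others among the largest changes in NTC differed by 1.72 for Ntn1, 2.49 for Tubb3, 3.58 for Htr5a, 1.90 for Myh13, 3.40 for Zfhx2, 2.49 for Camkk2, -0.77 for Slc30a2, 1.13 for Celsr1, -3.93 for Aqp3, -1.95 for Car4, -2.90 for Kif26a, -1.78 for S100a6, -1.56 for Anxa5, -0.94 for Arhgap29 and -1.65 for Rassf3. For Trh and Rundc3a, whose levels are given above, it was 5.86 for Trh and -6.11 for Rundc3a.

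In the 4 SOX2-rescued 2i libraries 1 library lay away from the others for 2 of the 3 genes examined in this way. For Trh the p21 library was at 20 while the others were at 10 or 11, a gap of 0.9 of the whole range. For Rundc3a p21 was at 456 while the others lay between 687 and 722, a gap of 0.868 of the range. A rate of about 1 in 20 groups for such a gap holds only for 4 independent libraries of the same kind. These 4 are replicates 1 and 2 of the first set and p21 and p31 of the second. The genes were also picked for large differences between the lines. That rate therefore does not apply here, and no conclusion is drawn from the gaps.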

How the results depend on the processing

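The count of changed genes, 4053, depended most on how the deposit sets and the few libraries were handled. It was 2680 without the term for the deposit set, 789 with the first-deposit replicates averaged per group, 897 with the 5 NTC libraries alone and 2142 with p31 as the only 2i library, and it ran from 2106 to 4713 when each NTC library was left out in turn, lowest without SL replicate 1 and highest without p31. The causes were not tested. For the difference between NTC and SOX2-rescued cells, 3095 genes, the count was 1421 without the deposit term, 4966 in the first deposit alone and 287 with its replicates averaged, and between 1946 and 3490 when each of the 11 libraries was left out. The other alternatives kept both counts within 1.5 times. With a replicate block the counts were 3835 and 2876, and 3418 in the 4 first-deposit NTC libraries alone with the block, against 6056 without it; replicates 1 and 2 share only a number in the labels. Among 196 genes named, 166 passed, 154 of them without any 1 library and 76 under every alternative. Turns of sign were counted only where at least 1 of the 2 fits compared passed. The sign of the log2 change then turned for Fzd5 (0.29 in the 4 first-deposit NTC libraries alone), for Cpne2 (-0.96 in the first deposit alone and in its 4 NTC libraries alone, which lack the high p31 value) and for Id2 (0.15 with p31 as the only 2i library). For Fzd5 the fit of all libraries thus gave a negative change, although every 2i value given above lies above both SL values. Of 38 lists, 38 had fewer changed members with averaged replicates, 37 with the 5 NTC libraries alone, 36 without SL replicate 1 and 32 with p31 as the only 2i library, and 37 had more in the first deposit alone. Depth is unknown, and genes at the tied upper end of the scale can differ unseen. Promoter motifs were not analysed here.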

Other observations

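At some genes the third 2i library stood far from all 4 others, and those named here were chosen after their values were seen. Cpne2, a calcium-dependent phospholipid-binding copine, was listed at 37, 39 and 675 in 2i, against 65 and 86 in SL. The scaffold gene Nedd9 was at 94, 81 and 682 in 2i, against 85 and 87 in SL, and Gli3, a transcription factor of Hedgehog signalling, at 93, 110 and 598 in 2i, against 121 and 93 in SL. In these 3 genes p31 alone was high, well above the 4 other libraries. In the opposite direction, Igfbp4, which binds insulin-like growth factors, was at 236, 380 and 14 in 2i, against 219 and 256 in SL. The Nodal antagonist Lefty1 was at 358, 317 and 12 in 2i, against 976 and 892 in SL, and Aire, the autoimmune regulator that embryonic stem cells also express, at 2170, 2493 and 73 in 2i, against 3967 and 3266 in SL. For these 3 p31 was the lowest of the 5 libraries.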
